A study of Danio rerio with 12 samples.

Results

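The genes described here are 9 of the 35004 genes in the deposited zebrafish table. They are the natriuretic peptide genes nppa and nppb and 7 genes of the heart sarcomere: myl7, vmhc, myh6, actc1a, tnnt2a, tnnc1a and tnni1b. They were taken from a list of names matched to the table's symbols without regard to case. Where the table uses a human-style symbol that several rows share, the copy was picked by its description. All 9 were found, and all 9 passed the filter of at least 1 FPKM in at least 3 libraries. FPKM scales the fragments of a gene by its length and by the size of the library, so levels are compared here per length.

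Polyadenylated RNA came from whole larvae at 3 days after fertilization that then spent 8 hours in normoxia or in hypoxia. Wild-type (WT) larvae and gcn2 knockout larvae were each held in both conditions, which gives 4 groups of 3 libraries. The gcn2 protein, product of eif2ak4, senses a shortage of amino acids and slows translation by phosphorylating eIF2. The series text calls the libraries of a group biological replicates. The oxygen level in hypoxia, the knockout allele and the number of larvae in a library are not given in the sources used here. Each genotype has its own normoxic group, and no group combines the knockout with a restored gcn2. The heart is a small share of a whole larva, and in bulk RNA fewer cells of a type and less RNA per cell cannot be told apart.

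Libraries held 15668848 to 16841145 reads assigned to genes, recovered from the FPKM steps. The targeted gene eif2ak4 was at 3.63 to 4.25 FPKM in the 6 WT libraries and at 1.52 to 1.95 FPKM in the 6 knockout libraries, without overlap. Its remaining reads are not resolved by exon in the table. All 8 cardiac muscle markers looked for, among them myl7, vmhc, myh6 and tnnt2a of the 9 genes, were present at a mean of at least 1 FPKM. So were the markers of fast, slow and smooth muscle, endocardium, epicardium, liver and epidermis that were looked for, and 1 of 3 erythrocyte markers was matched. The neuron markers looked for, elavl3 and snap25a, were not matched. The summed level of 2 liver markers was lower in hypoxia (402 to 510 FPKM in WT and 407 to 419 in the knockout, against 534 to 630 and 568 to 632 in normoxia). That of 2 epidermis markers was higher (6943 to 7938 and 5587 to 6205 FPKM, against 5555 to 6137 and 4167 to 4660), and neither overlapped between oxygen conditions within a genotype. The erythrocyte marker was at 15.6 to 19.6 FPKM in WT normoxia and 23.7 to 34.1 in WT hypoxia, and at 10.1 to 21.7 and 18.5 to 38.3 in the knockout. Their part in the changes of the 9 genes was not tested. WT hypoxia was the group whose libraries differed most from each other, with a variance 5.98 to 6.62 times the counting error, against 2.27 to 4.08 times in the other groups.

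Atrial and brain natriuretic peptides are hormones that heart muscle cells secrete. They bind receptors with guanylate cyclase activity, and the cyclic GMP made there relaxes vessels and promotes salt and water excretion. Their genes are widely used as markers of heart muscle under load or stress. The sarcomere genes encode the contractile apparatus itself: the ventricular and atrial myosin heavy chains, a regulatory light chain, cardiac actin and the troponin complex that couples calcium to contraction. In zebrafish, mutants of several of these genes have hearts that form but beat weakly or not at all, and early larvae survive this because oxygen reaches their tissues by diffusion.

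In hypoxia 4 of the 9 genes rose in WT, where 16.8% of all genes tested rose, and 6 of 9 rose in the knockout, where 21.8% of all genes did. In the knockout 1 of 9 was higher than in WT in normoxia and 3 of 9 in hypoxia, where 7.63% and 17.0% of all genes were. Of the 3 calls in hypoxia, those of myh6 and myl7 were each lost in some alternative fits. Both natriuretic peptide genes rose in hypoxia in both genotypes, and neither differed between genotypes by the test. The gene nppb, counted among the rises, passed the filter only through its hypoxic libraries. Of the sarcomere genes, actc1a and myl7 rose in hypoxia in both genotypes. In the knockout, myh6 and vmhc rose as well. The 3 troponin genes passed the test in no comparison. The cardiac actin gene actc1a was also higher in the knockout than in WT, in normoxia and in hypoxia.

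**Figure D1:**
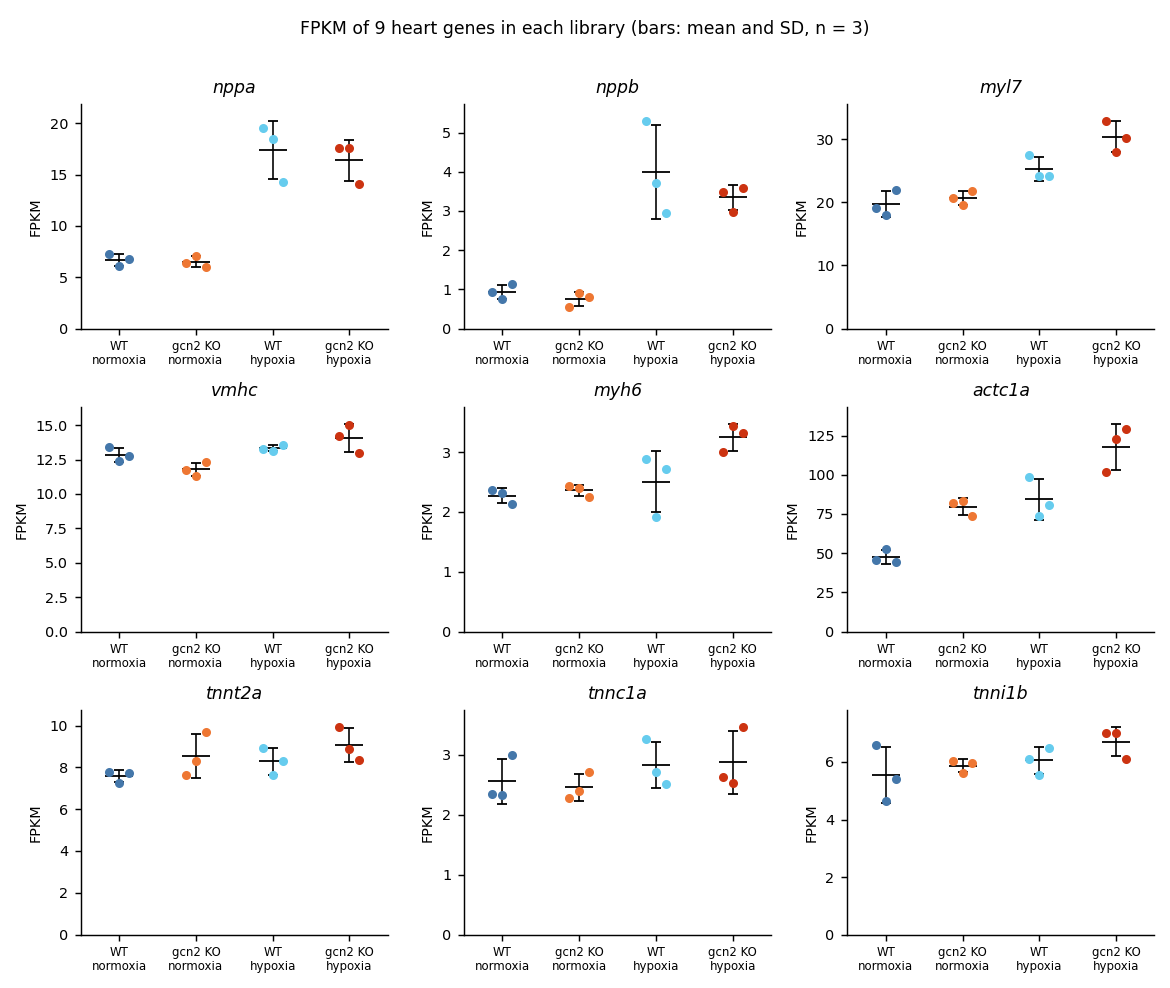
FPKM (linear axis from 0) of the 9 genes in each of the 12 libraries, by group. Points are libraries and the black bars the mean and SD (n = 3). The hypoxic libraries of nppa, at 14.1 to 19.6 FPKM, lie above all normoxic ones, at 6.03 to 7.27 FPKM, whereas the troponin genes overlap between neighbouring groups.

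The gene nppa (ENSDARG00000052960) encodes atrial natriuretic peptide and lies on the plus strand at chr8:48613040-48617664 of GRCz11. It was at 7.27, 6.10 and 6.79 FPKM in the WT normoxia libraries and at 6.38, 7.12 and 6.03 FPKM in knockout normoxia. In hypoxia it was at 19.6, 18.5 and 14.2 FPKM in WT and at 17.6, 17.6 and 14.1 FPKM in the knockout. Every hypoxic library was above every normoxic library, and the genotypes overlapped under both conditions. Mean levels, in rising order, were 6.51 FPKM ± 0.555 in knockout normoxia, 6.72 ± 0.589 in WT normoxia, 16.4 ± 2.00 in knockout hypoxia and 17.4 ± 2.82 in WT hypoxia (SD, n = 3). The mean in hypoxia was 2.59 times that in normoxia in WT and 2.52 times in the knockout.

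On the log2(FPKM + 1) scale, on which all log2 changes below were fitted and which understates the change of low genes, nppa rose by 1.25 ± 0.12 (SE) in WT and 1.21 ± 0.12 in the knockout. The adjusted p-values were 5.3e-06 and 4.8e-06 (limma, Benjamini-Hochberg over 21480 genes, n = 3 per group). Only 109 of the 21480 genes tested (0.507%) had a larger rise in WT, and 205 (0.954%) in the knockout. Between genotypes nppa changed by -0.04 in normoxia (95% interval -0.29 to 0.21, adjusted p = 0.848) and by -0.08 in hypoxia (-0.33 to 0.18, adjusted p = 0.655). The change in hypoxia differed between genotypes by -0.04 (95% interval -0.39 to 0.32, adjusted p = 0.918).

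The gene nppb (ENSDARG00000052958), for brain natriuretic peptide, lies 2495 bases before nppa on the same strand, at chr8:48609521-48610544, and the annotated genes do not overlap. It was at 0.921, 0.766 and 1.13 FPKM in WT normoxia and at 0.547, 0.897 and 0.795 FPKM in knockout normoxia. In hypoxia it was at 5.30, 3.71 and 2.95 FPKM in WT and at 3.49, 2.97 and 3.58 FPKM in the knockout. As for nppa, all hypoxic libraries lay above all normoxic ones and the genotypes overlapped. WT hypoxia held both the lowest and the highest of the 6 hypoxic values. The normoxic values rest on 9 to 18 reads in a library and the hypoxic ones on 44 to 79, so nppb is the least precisely measured of the 9 genes in normoxia. Of the normoxic libraries only WT normoxia replicate 3 reached 1 FPKM, so nppb passed the filter through its hypoxic libraries, where it is high.

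In mean level nppb went from 0.938 FPKM ± 0.182 to 3.99 ± 1.197 in WT, 4.25 times as high, and from 0.747 ± 0.180 to 3.35 ± 0.329 in the knockout, 4.48 times as high (SD, n = 3). The fitted log2 changes were 1.34 ± 0.15 (adjusted p = 2.72e-05) in WT and 1.32 ± 0.15 (adjusted p = 2.24e-05) in the knockout by limma. With a pseudocount of 0.1 in place of 1 they were 2.02 and 2.14, because nppb is close to 1 FPKM in normoxia. The genotype difference of nppb was -0.15 in normoxia (95% interval -0.48 to 0.18, adjusted p = 0.533) and -0.17 in hypoxia (-0.50 to 0.15, adjusted p = 0.408).

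The ratio between the peptide genes was lower in hypoxia. Within a library nppa was 6.03 to 7.97 times nppb in WT normoxia and 3.69 to 4.99 times in WT hypoxia. In the knockout the ratio was 7.58 to 11.7 in normoxia and 3.95 to 5.92 in hypoxia. The normoxic and hypoxic ranges did not overlap in either genotype, whereas the genotypes overlapped under both conditions. No test was made of this or any other ratio.

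A further natriuretic peptide gene, nppal, lies 5169 bases before nppb, and it was picked out after the neighbourhood was seen. It was at 2.54 to 3.89 FPKM in WT normoxia and 3.58 to 4.59 in WT hypoxia, and at 3.20 to 4.29 FPKM in knockout normoxia and 3.82 to 5.81 in knockout hypoxia. Its ranges overlapped, and its log2 changes of 0.27 in WT (adjusted p = 0.183) and 0.26 in knockout larvae (adjusted p = 0.177) did not pass the test in limma.

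Among the sarcomere genes, myl7 (ENSDARG00000019096, chr8:40457107-40464935, minus strand) encodes the regulatory myosin light chain of heart muscle, whose promoter is a common driver of heart reporters in zebrafish. It was at 19.1, 17.98 and 22.0 FPKM in WT normoxia and 20.7, 19.6 and 21.8 FPKM in knockout normoxia. It was at 27.5, 24.2 and 24.1 FPKM in WT hypoxia and 32.9, 28.0 and 30.2 FPKM in knockout hypoxia. The normoxic groups overlapped, WT hypoxia lay above both of them, and knockout hypoxia lay above WT hypoxia. The rise in hypoxia was 0.35 ± 0.08 on the log2 scale in WT (adjusted p = 0.0054) and 0.53 ± 0.08 in knockout larvae (adjusted p = 0.000241) by limma. The difference between genotypes in hypoxia was 0.25 ± 0.08 (adjusted p = 0.0316). It was lost (adjusted p up to 0.123) in 7 of 22 alternatives, among them the fit without WT hypoxia replicate 2 or replicate 3 and without knockout hypoxia replicate 1 or replicate 3.

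The ventricular myosin heavy chain gene vmhc (ENSDARG00000079564, chr2:24252987-24270062, minus strand) carries the symbol MYH6 and the description myosin heavy chain 7 in the table. It was the steadiest of the 9, with the highest library only 1.32 times the lowest. It was at 13.4, 12.4 and 12.7 FPKM in WT normoxia and 11.8, 11.3 and 12.3 FPKM in knockout normoxia. It was at 13.3, 13.2 and 13.5 FPKM in WT hypoxia and 14.2, 15.0 and 12.9 FPKM in knockout hypoxia. Knockout normoxia lay below WT normoxia without overlap, and the 3 other groups overlapped with their neighbours in level. In the knockout vmhc rose by 0.23 ± 0.06 in hypoxia (adjusted p = 0.00749, limma), and in WT its change was 0.05 ± 0.06 (adjusted p = 0.543). The difference between these changes was 0.18 (95% interval -0.0038 to 0.37, adjusted p = 0.190). A gene described as myosin heavy chain 7-like, myh7l, lies 4230 bases from vmhc on the same strand. It was at 6.34 to 7.83 FPKM in WT normoxia and 8.09 to 9.91 in WT hypoxia. In the knockout it was at 6.26 to 7.36 FPKM in normoxia and 10.3 to 11.0 in hypoxia. How reads that match both genes were counted is not given in the sources used here.

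Scaling each library to the same summed FPKM, as TPM does, moved the median log2 change of all genes to -0.14 in the knockout's response to hypoxia. On that scale vmhc changed by 0.09 (adjusted p = 0.294), which is still above that median but no longer past the test.

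The atrial myosin heavy chain gene myh6 (ENSDARG00000090637, chr20:53577502-53583436, plus strand), mutated in the zebrafish weak atrium line, was among the lowest of the 9. It was at 2.37, 2.32 and 2.13 FPKM in WT normoxia and 2.43, 2.40 and 2.26 FPKM in knockout normoxia. It was at 2.88, 1.92 and 2.71 FPKM in WT hypoxia and 3.00, 3.43 and 3.31 FPKM in knockout hypoxia. Knockout hypoxia lay above the other 3 groups, which overlapped, and WT hypoxia replicate 2 was the lowest of all 12 libraries.

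In hypoxia myh6 rose by 0.34 ± 0.10 in the knockout (adjusted p = 0.0177, limma), while its change in WT was 0.09 ± 0.10 (adjusted p = 0.541). The call in the knockout was lost (adjusted p up to 0.110) with TPM scaling, without knockout normoxia replicate 3 and without knockout hypoxia replicate 2. Between genotypes in hypoxia myh6 was higher in the knockout by 0.29 ± 0.10 (adjusted p = 0.0470), a call lost in 16 of 21 alternatives, with adjusted p up to 0.185. The ratio of myh6 to vmhc, an atrial to a ventricular gene, was 0.167 to 0.188 in WT normoxia, 0.183 to 0.211 in knockout normoxia, 0.146 to 0.217 in WT hypoxia and 0.211 to 0.256 in knockout hypoxia. It overlapped between the groups in all 4 comparisons.

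The cardiac actin gene actc1a (ENSDARG00000042535, chr20:29476852-29483514, minus strand) was the highest of the 9. It was at 45.6, 52.6 and 44.6 FPKM in WT normoxia and 82.3, 83.3 and 73.6 FPKM in knockout normoxia. It was at 98.5, 73.5 and 80.9 FPKM in WT hypoxia and 101, 123 and 129 FPKM in knockout hypoxia. WT normoxia was the lowest group and knockout hypoxia the highest, and knockout normoxia and WT hypoxia between them overlapped.

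Unlike the peptide genes, actc1a moved with both genotype and oxygen. It rose in hypoxia by 0.81 ± 0.11 in WT (adjusted p = 0.000132) and by 0.55 ± 0.11 in the knockout (adjusted p = 0.00151) in the limma fit. It was higher in the knockout by 0.73 ± 0.11 in normoxia (adjusted p = 0.000892) and by 0.48 ± 0.11 in hypoxia (adjusted p = 0.00569). The interaction of genotype and oxygen was -0.25 (95% interval -0.59 to 0.09, adjusted p = 0.326). Only 1.42% of the genes tested had a larger genotype difference upward in normoxia.

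Troponin T holds the troponin complex on the thin filament, troponin C binds calcium and troponin I inhibits contraction until calcium is bound. The tnnt2a gene (ENSDARG00000020610, chr23:5653224-5685172, minus strand) is the one mutated in the zebrafish silent heart line, whose hearts do not beat. It ranged from 7.24 to 9.94 FPKM over the 12 libraries, with group means of 7.58 FPKM ± 0.289 in WT normoxia, 8.29 ± 0.633 in WT hypoxia, 8.54 ± 1.06 in knockout normoxia and 9.05 ± 0.809 in knockout hypoxia (SD, n = 3). Each group overlapped with the next, and the log2 change in hypoxia was 0.11 in WT (95% interval -0.08 to 0.30) and 0.08 in the knockout (-0.11 to 0.27). The adjusted p-values were 0.341 and 0.499 in limma.

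For tnnc1a (ENSDARG00000011400, chr23:4890693-4895876, plus strand) the range was 2.27 to 3.47 FPKM, on 42 to 58 reads, and every group overlapped with the next. Its log2 changes in hypoxia were 0.11 in WT (95% interval -0.14 to 0.36) and 0.16 in the knockout (-0.09 to 0.41). For tnni1b (ENSDARG00000052708, chr6:54805136-54826061, minus strand), described in the table as a slow skeletal type, the range was 4.64 to 7.02 FPKM. Its changes were 0.11 in WT (95% interval -0.10 to 0.33) and 0.16 in the knockout (-0.05 to 0.38). In the knockout its hypoxic libraries all lay above the normoxic ones, yet the adjusted p was 0.202. The upper bounds show that rises of the size seen for nppa or actc1a in WT were outside the intervals of all 3 troponin genes.

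**Figure D2:**
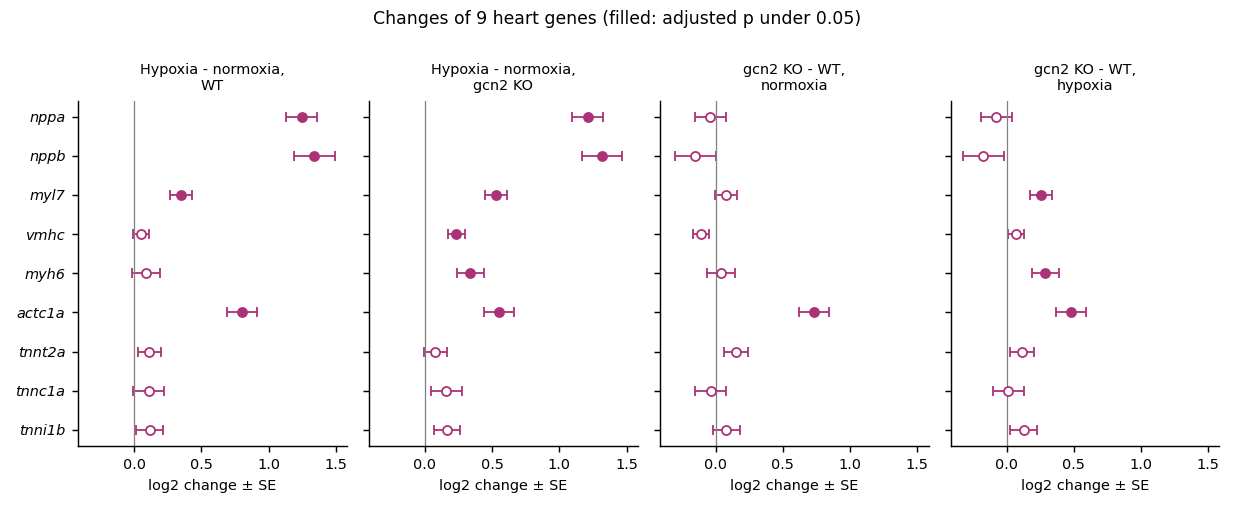
Log2 change of the 9 genes, with SE, in the 4 pairwise comparisons, on the log2(FPKM + 1) scale. Filled points have an adjusted p under 0.05 in limma (n = 3 per group). In hypoxia nppa and nppb moved by 1.21 to 1.34 in both genotypes, and actc1a is the only filled point for the genotypes in normoxia.

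None of the 9 genes fell, or was lower in the knockout, past the test in any pairwise comparison, while 19.2% and 22.2% of all genes fell in hypoxia in WT and in the knockout, and 9.11% and 16.2% were lower in the knockout in normoxia and in hypoxia. Their median log2 change in hypoxia was 0.11 in WT, against 0.0076 for all genes tested, and 0.34 in the knockout, against -0.0003. Between genotypes their median was 0.04 in normoxia, against -0.01 for all genes, and 0.11 in hypoxia, against -0.002. The count of 3 genes higher in the knockout in hypoxia depended on the fit. It was 2 with the replicate number as a block. It was 1 with array weights, with the compared groups alone in the fit, and without WT hypoxia replicate 2, knockout hypoxia replicate 1 or knockout hypoxia replicate 3. Other alternatives lowered it as well, since the myh6 call was lost in 16 of 21 and the myl7 call in 7 of 22. The actc1a call was kept in all 22.

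The interaction of genotype and oxygen, which asks whether the change in hypoxia differed between genotypes, passed the test for 0 of the 9 genes in limma, where 9.25% of all genes passed. None of the 9 had an unadjusted p under 0.05, and voom on the recovered reads also gave 0. The lowest was that of vmhc (unadjusted p = 0.0542). The responses of vmhc and myh6, past the test in the knockout alone, were thus not shown to differ between genotypes.

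Over all genes, TPM scaling changed the balance of calls. In the knockout's response to hypoxia 4684 genes rose and 4767 fell, against 2768 and 7231 with TPM scaling. Between genotypes in normoxia 1638 were higher and 1957 lower in the knockout, against 2125 and 1238, and in hypoxia 3641 and 3470, against 2821 and 4266. For the interaction the counts were 1019 and 967, against 409 and 1698. With TPM scaling the counts of the 9 genes that rose or were higher were 4, 4, 1 and 2 in the pairwise comparisons and 0 for the interaction.

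The peptide genes were higher in hypoxia also relative to vmhc, a ventricular myosin gene. Ratios to its neighbour myh7l, which was itself higher in hypoxia in both genotypes, were not taken. The ratio of nppa to vmhc was 0.493 to 0.543 in WT normoxia and 1.05 to 1.47 in WT hypoxia, a mean 2.503 times as high. In the knockout it was 0.491 to 0.628 in normoxia and 1.09 to 1.24 in hypoxia, 2.11 times as high. For nppb to vmhc the mean ratio was 4.10 times as high in hypoxia in WT and 3.78 times in the knockout. None of these 4 pairs of ranges overlapped.

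Skeletal muscle RNA, far more abundant in a larva than heart RNA, moved as well. The 47 fast skeletal muscle genes of a fixed list summed to 47528 to 49359 FPKM in WT normoxia and 41596 to 43759 in knockout normoxia. They summed to 56306 to 57763 FPKM in WT hypoxia and 53643 to 59521 in knockout hypoxia. Of these 47 genes, 20 rose and 3 fell in hypoxia in WT (median 0.16), 32 rose and 0 fell in the knockout (median 0.30, or 23 and 5 with TPM scaling), and in normoxia 27 were lower and 4 higher in the knockout (median -0.21). Between genotypes in hypoxia 18 of the 47 were lower and 8 higher in the knockout (median -0.11), or 25 and 7 with TPM scaling. Over all genes tested, 16.8% rose and 19.2% fell in hypoxia in WT, and 21.8% and 22.2% in the knockout. Between genotypes 9.11% of all genes were lower and 7.63% higher in the knockout in normoxia, and 16.2% and 17.0% in hypoxia.

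The summed level of the 6 sarcomere genes other than actc1a was 46.9 to 53.0 FPKM in WT normoxia, 49.6 to 54.8 in knockout normoxia, 55.2 to 62.0 in WT hypoxia and 64.4 to 69.7 in knockout hypoxia. It was higher in hypoxia without overlap in both genotypes. The genotypes overlapped in normoxia, and in hypoxia the knockout lay above WT without overlap. The highest gene in this sum was myl7, with means of 19.7 FPKM in WT normoxia and 25.3 in WT hypoxia, against 50.5 and 58.3 for the sum. In the knockout the mean of myl7 went from 20.7 to 30.4 FPKM and that of the sum from 51.8 to 66.3. A sum without myl7 was not taken. Set against the fast skeletal muscle sum, the 6 sarcomere genes other than actc1a overlapped between the oxygen conditions. They came to 0.987 to 1.07 FPKM per 1000 FPKM of fast skeletal muscle genes in WT normoxia and 0.958 to 1.07 in WT hypoxia. In the knockout they came to 1.19 to 1.25 in normoxia and 1.17 to 1.202 in hypoxia. The knockout ranges lay above the WT ranges in both conditions. In normoxia the fast skeletal muscle sum was lower in the knockout without overlap, at 0.874 times the WT mean. In hypoxia that sum overlapped between genotypes, at 0.973 times the WT mean. By the same measure nppa was at 0.128 to 0.147 in WT normoxia and 0.253 to 0.339 in WT hypoxia, and at 0.138 to 0.171 and 0.263 to 0.326 in the knockout, without overlap between the oxygen conditions. The part of skeletal muscle in the changes of the sarcomere genes was not tested.

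**Figure D3:**
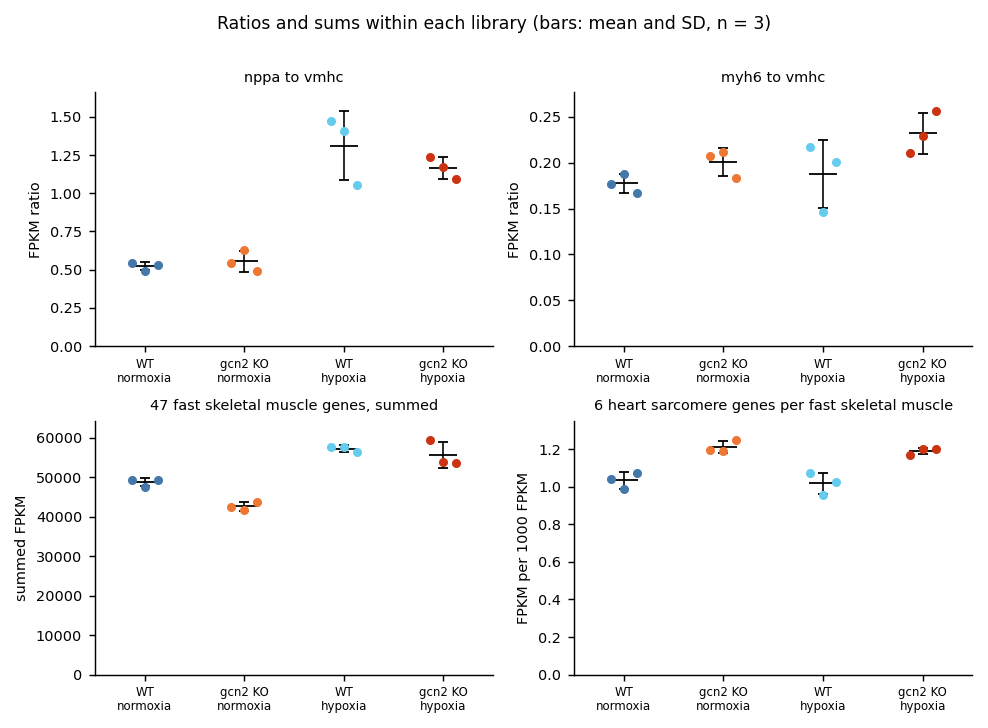
Ratios of FPKM and summed FPKM within each library (linear axes from 0), by group, with the mean and SD of 3 libraries in black. The ratio of nppa to vmhc is 1.05 or more in every hypoxic library and at most 0.628 in every normoxic one, while 6 sarcomere genes per 1000 FPKM of fast skeletal muscle genes separate by genotype and not by oxygen.

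Actin genes encode nearly identical proteins, how reads that match several copies were counted is not given in the sources used here, and the values of each copy are uncertain to that extent. The same holds for the troponin copies. The paralogue actc1b stood at 6431 to 9723 FPKM over all libraries, against 44.6 to 129 for actc1a. The level of actc1b was higher in hypoxia in both genotypes without overlap, and the genotypes overlapped under both conditions. The troponin C copy tnnc1b stood at 117 to 178 FPKM, against 2.27 to 3.47 for tnnc1a. Whether reads of these copies add to the levels of actc1a and tnnc1a was not tested. The 4 actin genes actc1a, actc2, acta1a and acta2 differed in the order of their group means. The smooth muscle actin gene acta2 was higher in the knockout, as actc1a was, by 0.69 ± 0.10 in normoxia (adjusted p = 0.000661) and 0.84 ± 0.10 in hypoxia (adjusted p = 6.87e-05). Unlike actc1a, it changed in hypoxia by -0.21 in WT (adjusted p = 0.121) and by -0.07 in the knockout (adjusted p = 0.632), short of the test in limma. The skeletal actin gene acta1a rose in hypoxia in both genotypes (0.84 ± 0.07 and 1.04 ± 0.07) and was lower in the knockout in normoxia (-0.99 ± 0.07) and in hypoxia (-0.80 ± 0.07).

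The level of actc2, listed here with fast skeletal muscle, was 84.1 to 92.9 FPKM in WT normoxia, 66.9 to 72.4 in knockout normoxia, 160 to 187 in WT hypoxia and 76.8 to 79.1 in knockout hypoxia. It rose by 0.94 ± 0.06 in hypoxia in WT (adjusted p = 3.04e-07), and the change in the knockout differed from that by -0.77 (adjusted p = 0.00131, limma).

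The genotype difference of actc1a was in the same direction as that of most smooth muscle genes past the test. Of 19 such genes, 8 were higher and 0 lower in the knockout in normoxia (median 0.26), and 10 were higher and 1 lower in hypoxia (median 0.35). Over all genes, 7.63% were higher and 9.11% lower in normoxia, and 17.0% and 16.2% in hypoxia. From normoxia to hypoxia, where actc1a rose in both genotypes, 1 of the 19 rose and 2 fell in WT (median -0.10). In the knockout 1 rose and 0 fell (median -0.02). The shares of all genes that rose and fell were 16.8% and 19.2% in WT and 21.8% and 22.2% in the knockout. The sum of the 19 was 274 to 291 FPKM in WT normoxia and 347 to 358 in knockout normoxia, and 244 to 292 and 341 to 366 in hypoxia. One of these 19, the desmin gene desmb, for an intermediate filament of muscle, was higher in the knockout by 0.73 ± 0.08 (adjusted p = 0.000121) and 0.84 ± 0.08 (adjusted p = 1.83e-05). The list of other heart sarcomere genes, described below, holds desmb as well. The part of smooth muscle in the actc1a difference was not tested.

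**Figure D4:**
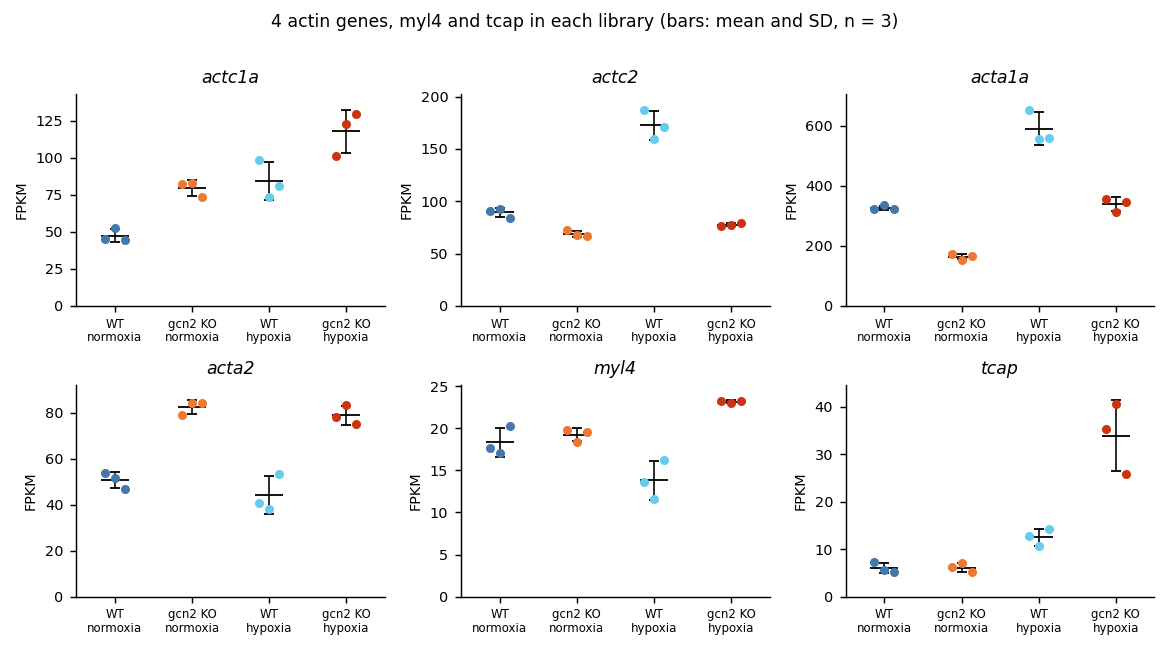
FPKM (linear axes from 0) of 4 actin genes, the myosin light chain gene myl4 and the titin cap gene tcap in each library, by group, with the mean and SD of 3 libraries in black. The 4 actin genes differ in the order of their group means: actc2 stands at 160 to 187 FPKM in WT hypoxia and at most 92.9 FPKM in the other groups, while acta2 separates by genotype.

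The other genes of the natriuretic peptide system encode peptides, receptors and enzymes. In the fit reported, no receptor gene fell in hypoxia past the test. Of 13 tested besides nppa and nppb, 1 rose and 1 fell in hypoxia in WT (median 0.11), and 5 rose and 1 fell in the knockout (median 0.15), or 3 and 3 with TPM scaling. The shares of all genes that rose and fell were 16.8% and 19.2% in WT and 21.8% and 22.2% in the knockout. The receptor gene npr2, whose product binds C-type natriuretic peptide, rose in both, by 0.31 ± 0.08 in WT (adjusted p = 0.0106) and 0.22 ± 0.08 in knockout larvae (adjusted p = 0.0457). The second of these calls was lost in 12 of 22 alternatives, with adjusted p up to 0.453 (TPM scaling). Among these 12 were those that left out any 1 library other than WT hypoxia replicate 1 or 3 or knockout normoxia replicate 2. The gene of that peptide, nppc, rose by 0.55 ± 0.15 in the knockout (adjusted p = 0.00991), and its change in WT was 0.40 ± 0.15 (adjusted p = 0.0543). The guanylate cyclase receptor gene npr1a went from 2.23 to 2.48 FPKM in WT (adjusted p = 0.437) and from 1.92 to 2.43 in the knockout (adjusted p = 0.0933), short of the test in limma.

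The clearance receptor gene npr3, whose product removes natriuretic peptides, rose from 6.36 to 8.60 FPKM in the knockout (0.39 ± 0.06, adjusted p = 0.000221). In WT it went from 7.13 to 7.65 FPKM (0.09 ± 0.06, adjusted p = 0.264), and the difference between these changes passed the test (0.30, adjusted p = 0.0464). That last call was lost in 15 of 21 alternatives, among them TPM scaling (adjusted p = 0.205), the replicate block and every library left out except WT hypoxia replicate 1. Osteocrin, from ostn, binds the same receptor. Its gene fell by 0.49 on the log2 scale in hypoxia in WT (adjusted p = 0.00958) and was lower in the knockout in normoxia, at 1.298 against 2.35 FPKM (adjusted p = 0.0133, and up to 0.0555 without knockout normoxia replicate 2).

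Of the enzymes, the gene of corin, which cleaves the atrial peptide's precursor in mammals, was lower in the knockout in hypoxia, at 1.70 against 2.84 FPKM (-0.51 ± 0.12, adjusted p = 0.00662). The furin gene furinb was lower too, at 5.39 against 7.02 FPKM (-0.33 ± 0.09, adjusted p = 0.0114), a call lost without WT hypoxia replicate 2 or knockout hypoxia replicate 2 (adjusted p up to 0.0513). In the knockout a second guanylate cyclase receptor gene, npr1b, was higher by 0.44 ± 0.10 in normoxia and 0.36 ± 0.10 in hypoxia (adjusted p = 0.0129 and 0.0191). The first call was lost without WT normoxia replicate 3 or knockout normoxia replicate 3, and the second with the compared groups alone and without WT hypoxia replicate 2 or knockout hypoxia replicate 1 (adjusted p up to 0.0816). The cyclic GMP kinase gene prkg1b was higher there in hypoxia by 0.61 ± 0.10 (adjusted p = 0.000611, limma), whereas its paralogue prkg1a was lower, by -0.26 ± 0.08 (adjusted p = 0.0318). The gene nppcl, a C-type-like natriuretic peptide gene, was higher in the knockout by 0.32 ± 0.10 in normoxia (adjusted p = 0.0377) and 0.61 ± 0.10 in hypoxia (adjusted p = 0.000504). The prkg1a call was lost in 6 of 21 alternatives (adjusted p up to 0.105) and the nppcl call in normoxia in 7 of 22 (adjusted p up to 0.135), each by leaving out single libraries among others. Over the 13 genes, 2 were higher and 1 lower in the knockout in normoxia, and 3 were higher and 3 lower in hypoxia (medians -0.07 and -0.11). Of all genes tested, 7.63% were higher and 9.11% lower in normoxia, and 17.0% and 16.2% in hypoxia.

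Among 46 other sarcomere genes of heart muscle, many of them also used by skeletal muscle, 15 rose and 10 fell in hypoxia in WT (median 0.07) and 25 rose and 5 fell in the knockout (median 0.22), or 14 and 8 with TPM scaling. Between genotypes 2 were higher and 7 lower in the knockout in normoxia (median -0.06), and 14 higher and 10 lower in hypoxia (median 0.04), or 8 and 11 with TPM scaling. For comparison, 16.8% of all genes rose and 19.2% fell in hypoxia in WT, and 21.8% and 22.2% in the knockout. Higher and lower in the knockout were 7.63% and 9.11% of all genes in normoxia and 17.0% and 16.2% in hypoxia. The titin cap gene tcap rose by 0.95 ± 0.16 in WT (adjusted p = 0.000671) and by 2.28 ± 0.16 in the knockout (adjusted p = 4.32e-07). It reached 25.8 to 40.5 FPKM in knockout hypoxia, above the 10.6 to 14.2 of WT hypoxia. The light chain gene myl4 fell by 0.39 on the log2 scale in WT (adjusted p = 0.00595) and stood at 23.0 to 23.3 FPKM in knockout hypoxia against 11.6 to 16.2 in WT hypoxia. Another light chain gene of the list, the cardiac marker cmlc1, was higher in hypoxia in both genotypes, without overlap. It went from 18.6 to 20.9 FPKM to 24.2 to 29.3 in WT, and from 17.9 to 21.9 FPKM to 25.8 to 29.3 in the knockout. The methyltransferase gene smyd1b and the chaperone gene unc45b, both needed to assemble myosin, fell in hypoxia in both genotypes. The falls in the knockout were by 0.53 and 0.65 on the log2 scale (adjusted p = 1.86e-05 and 8.36e-05), and in WT by 0.44 and 0.33 (adjusted p = 0.000117 and 0.0109, limma). The paralogue smyd1a went the other way, from 25.6 to 27.6 FPKM in WT normoxia to 35.2 to 37.4 in WT hypoxia. In the knockout smyd1a went from 22.5 to 24.8 FPKM in normoxia to 29.0 to 32.7 in hypoxia, and the oxygen conditions overlapped in neither genotype.

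For 28 heart calcium and ion handling genes, 7 rose and 5 fell in WT and 8 rose and 4 fell in the knockout (medians 0.03 and 0.07), the latter 3 and 8 with TPM scaling. In normoxia 1 was higher and 5 lower in the knockout, and in hypoxia 2 were higher and 8 lower (medians -0.01 and -0.03). Over all genes, 16.8% rose and 19.2% fell in WT, and 21.8% and 22.2% in the knockout. Between genotypes 7.63% of all genes were higher and 9.11% lower in normoxia, and 17.0% and 16.2% in hypoxia. The calcium pump gene atp2a2b, which returns calcium to the sarcoplasmic reticulum, fell from 15.5 to 9.49 FPKM in WT (-0.67 ± 0.10, adjusted p = 0.000257) and from 17.4 to 7.43 in the knockout (-1.12 ± 0.10, adjusted p = 2.88e-06). Its paralogue atp2a2a went the other way, from 9.24 to 10.3 FPKM in WT normoxia to 10.6 to 14.3 in WT hypoxia. In the knockout atp2a2a went from 11.0 to 11.6 FPKM in normoxia to 14.4 to 15.3 in hypoxia. Neither pair of ranges overlapped. The junctophilin gene jph2, for a protein that holds the reticulum at the cell membrane, rose in both, from 65.4 to 92.4 FPKM in WT and from 42.3 to 67.5 in the knockout. It was lower in the knockout by 0.61 and 0.45 on the log2 scale, so hypoxia and the knockout moved it in opposite directions (limma adjusted p = 1.39e-05 or less in all 4 comparisons).

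Of 35 heart transcription factor genes, 9 rose and 0 fell in WT (median 0.13), and 8 rose and 5 fell in the knockout (median 0.06), or 4 and 10 with TPM scaling. In the knockout 0 were higher and 3 lower in normoxia, or 2 and 1 with TPM scaling, and 1 was higher and 9 lower in hypoxia (medians -0.07 and -0.13). The shares of all genes that rose and fell in hypoxia were 16.8% and 19.2% in WT and 21.8% and 22.2% in the knockout. Those higher and lower in the knockout were 7.63% and 9.11% in normoxia and 17.0% and 16.2% in hypoxia. The changes of this list cannot be placed in the heart either. In these whole larvae isl1a stood at 26.9 to 39.2 FPKM and nkx2.5 at 0.878 to 2.04. The factor gene gata4, whose product binds the promoters of natriuretic peptide genes in mammals, rose from 4.54 to 5.23 FPKM in WT normoxia to 9.11 to 9.89 in WT hypoxia. In the knockout it went from 4.20 to 5.88 FPKM to 8.21 to 9.55. The rises were 0.84 ± 0.10 (adjusted p = 2.8e-05) and 0.70 ± 0.10 (adjusted p = 8.73e-05, limma), without overlap. Its relative gata5 was higher in the knockout in hypoxia, at 12.2 against 8.89 FPKM (0.42 ± 0.06, adjusted p = 0.000382), and the ventricular factor gene irx4a was lower, at 2.59 against 4.58 FPKM (-0.62 ± 0.14, adjusted p = 0.00537).

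Genes of the endocardium, valves and epicardium give the other tissues of the heart. Of 33, 8 rose and 1 fell in WT and 9 rose and 3 fell in the knockout (medians 0.16 and 0.09), the latter 3 and 7 with TPM scaling. Of the same genes 2 were higher in the knockout in each oxygen condition and 4 and 6 were lower. Beside these counts, 16.8% of all genes rose and 19.2% fell in WT, and 21.8% and 22.2% in the knockout. Between genotypes 7.63% and 17.0% of all genes were higher in the knockout in normoxia and in hypoxia, and 9.11% and 16.2% were lower. The flow-responsive factor gene klf2a was higher in the knockout in normoxia, at 23.8 against 15.1 FPKM (0.62 ± 0.10, adjusted p = 0.00129). The summed level of 5 endocardial and endothelial markers was 48.8 to 50.5 FPKM in WT normoxia, 53.1 to 58.5 in knockout normoxia, 48.7 to 57.5 in WT hypoxia and 50.8 to 55.4 in knockout hypoxia. This sum includes klf2a. In normoxia cdh5 was lower in the knockout without overlap (6.32 to 6.68 against 7.32 to 8.14 FPKM). The same held for kdrl (7.88 to 8.23 against 8.31 to 8.60) and fli1a (12.1 to 13.1 against 14.0 to 14.8). The remaining marker, nfatc1, overlapped between genotypes in normoxia. For cdh5, kdrl and fli1a only the ranges are given, without a test result or the share of all genes that did not overlap. The kdrl ranges lay close together. TPM scaling moved the median log2 change of all genes in this comparison from -0.01 to 0.05, and the ranges were not compared on that scale.

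The genes whose profile over the 12 libraries was closest to that of nppa, among 10257 genes with a mean of at least 5 FPKM, were pgam1a, btg3, si:dkey-42i9.4 and akt1s1, with the 9 genes themselves left out. Likeness was the root mean square difference of centred log2(FPKM + 1) values, which was 0.134 for pgam1a, an enzyme of glycolysis, against 0.629 for the profile of nppa itself. For nppb the closest were WSB1, akt1s1, PLOD1 and si:dkey-42i9.4, as the table writes them, from 0.144 to 0.173 against 0.690. The difference between nppa and nppb was 0.164, within that range. The added 1 FPKM compresses the profile of nppb, at means of 0.938 and 0.747 FPKM in normoxia in WT and the knockout. Its likeness to more abundant genes is therefore not one of fold change. Mean nppb in hypoxia was 4.25 and 4.48 times that in normoxia in WT and the knockout, against 2.59 and 2.52 times for nppa. For the mean profile of the 7 sarcomere genes they were ALDH1L1, rhoca, PEX13 and slc3a2a, from 0.0475 to 0.0562 against 0.163. All these genes are more abundant than nppb and are measured in the same libraries, and no test was made. Among the 9 genes themselves, vmhc and tnni1b had the most alike profiles, with a difference of 0.104.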

How the data were processed

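Polyadenylated RNA of whole zebrafish larvae was sequenced in 12 libraries. The authors deposited a table of FPKM values for 35004 genes, with gene lengths and coordinates. The tools fastp, HISAT2 2.2.1 and featureCounts 2.0.6 and the build GRCz11 are named in the submitters' processing notes. How the authors scaled the FPKM, treated reads with several matches and handled strand is not given in the sources used here. FPKM times gene length came in whole steps for 100% of values, within 0.05 of a read, which gave the reads of each library. The library size implied by the steps was 0.945 to 1.07 times those reads. Counting error is largest for genes with few reads.

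Groups came from the sample titles. Genes with at least 1 FPKM in at least 3 libraries (21480) were fitted on log2(FPKM + 1) with limma 3.58.1 in R 4.3.3, with a mean per group, all 12 libraries and a variance trend. The 4 pairwise contrasts and the interaction were read at a Benjamini-Hochberg adjusted p of 0.05, adjusted within each comparison. Ratios, sums and likeness have no test. The fit was also run on simulated data with a single spread for all genes and groups and with changes in WT hypoxia alone. Such data do not cover the unequal spread of the groups, and no result here rests on them. Tables and figures used Python 3.11.15, pandas 2.3.3, numpy 2.4.6 and matplotlib 3.10.9.

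Same-numbered libraries of different groups had residual correlations from -0.087 to 0.119 over 18 pairs, with 1 over 0.1, and the numbers were therefore not used to pair libraries. The 9 genes, the 8 gene lists and the tests were chosen with earlier results of these data known. Named genes were the 9, eif2ak4, the detected genes of the natriuretic peptide list, at most the 2 largest rises and 2 largest falls past the test from each other list in each comparison, the 4 genes most like each profile, and actin and troponin paralogues. Only some of these are described. Added to them were nppal, other paralogues and neighbours of named genes, and single tissue markers. These additions, and the genes chosen for description among those that the rule gives, were picked after their values were seen.

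The fit was repeated with 0.1 as the pseudocount, without the filter, with a minimum of 5 FPKM (which nppb, myh6 and tnnc1a did not pass), with array weights, and with values rescaled as TPM, by median ratios or by quantiles. It was also repeated with a replicate block, on the compared groups alone, with voom on the recovered reads, and with each library left out in turn. The same alternatives for the gene lists and for named genes other than the 9 were added after seeing the data.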

Additional observations from a re-analysis of the deposited data

Results flagged for a closer look

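The naming rule gives 13 genes of the heart, muscle and natriuretic peptide lists whose change in hypoxia differed between genotypes. The interaction was tested in limma, and none of the 9 heart genes is among the 13. The rule caps most lists, so the lists hold more calls. Positive and negative calls were 4 and 0 of 46 other heart sarcomere genes and 4 and 1 of 47 fast muscle genes. They were 4 and 0 of 15 slow muscle, 0 and 0 of 19 smooth muscle and 1 and 1 of 13 peptide system genes. They were 1 and 0 of 28 calcium and ion handling and 0 and 2 of 35 transcription factor genes. Of 33 endocardium, valve and epicardium genes, 0 were positive and 1 negative. Of all genes tested, 9.25% passed. The values below are the log2 change in the knockout minus that in WT. The difference was positive for the clearance receptor gene npr3 (0.30), the titin cap gene tcap (1.33), the light chain genes myl4 (0.65) and myl10 (0.37), and the troponin I genes tnni2a.1 (0.47) and tnni1d (0.40). It was positive also for the connexin gene gja1b (0.31) and the muscle factor gene myod1 (0.54). It was negative for the protease gene furinb (-0.52), the actin gene actc2 (-0.77), the factor genes mef2cb (-0.35) and irx4a (-0.71) and the receptor gene notch1b (-0.73). With 3 libraries in a group, no test for outlying values was made, though each library was left out in turn. Of these 13 calls, 3 (tcap, myl4 and actc2) passed the test in every alternative and 10 were lost in some. With TPM scaling 5 of the 8 positive calls were lost: npr3 (adjusted p = 0.205), tnni2a.1 (0.137), tnni1d (0.0867), gja1b (0.181) and myod1 (0.073), and none of the negative ones.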

How the results depend on the processing

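Of the 45 member results (9 genes in 5 comparisons), 14 passed the test and 10 of these passed it in every alternative that could be fitted. None of the 14 changed direction, and the 4 that lost the test in some alternative are given with myh6, vmhc and myl7 above. None of the 31 results short of the test passed it in any alternative, and 12 of them turned sign in some. With the replicate number as a block the members called were 4, 6, 1, 2 and 0 and all genes called 7606, 9319, 3534, 6931 and 1979, in the order hypoxia in WT, hypoxia in the knockout, genotype in normoxia, genotype in hypoxia and interaction, and the block ended the call of myh6 between genotypes in hypoxia. The members called between genotypes in hypoxia were 1 with array weights and 1 with the compared groups alone. All genes called between genotypes in normoxia were 5471 with array weights, and for the interaction 1230 without a filter and 3000 with voom. With 1 library left out, the members called ranged from 1 to 3 between genotypes in hypoxia, and all genes called ranged from 2048 to 3993 between genotypes in normoxia and from 480 to 2839 for the interaction. The cause of these moves was not tested.

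Among the log2 changes short of the test, TPM scaling turned nppa between genotypes in normoxia (0.021), tnnt2a in hypoxia in the knockout (-0.068), tnnc1a between genotypes in normoxia (0.014) and in hypoxia (-0.036), and the interaction of tnnc1a (-0.050) and tnni1b (-0.068). The interaction of nppb was 0.092 with a pseudocount of 0.1, 0.016 with quantile normalization and 0.12 with voom. Leaving out 1 library gave ranges across 0 for nppa between genotypes in normoxia (-0.099 to 0.011) and in hypoxia (-0.21 to 0.023) and its interaction (-0.17 to 0.063). The same held for nppb between genotypes in hypoxia (-0.33 to 0.0075) and its interaction (-0.18 to 0.16), and for the interaction of tnnt2a (-0.10 to 0.051). It held for tnnc1a between genotypes in normoxia (-0.089 to 0.049) and in hypoxia (-0.095 to 0.092) and its interaction (-0.058 to 0.13), and for tnni1b between genotypes in normoxia (-0.024 to 0.19) and its interaction (-0.062 to 0.15). Depth limits nppb and tnnc1a most. Over all alternatives, counts of the 8 gene lists stayed within 1.5 times in 736 cases and moved further in 136, and results of other named genes lost the test in 237 cases, kept their direction and side of the test in 2451 and turned direction in 0.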
